A study of Mus musculus with 8 samples.

Results

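To ask how CD11b+Gr-1lo myeloid cells of the spleen (SP) differ from cells of the same phenotype in the bone marrow (BM) of lupus-prone mice, the 2 SP Gr-1lo libraries (7 and 8) were compared with the 2 BM Gr-1lo libraries (11 and 12), 4 of the 8 libraries of the series. The libraries of each group were taken by their labels. All mice were homozygous sanroque mice, Roquin san/san on a C57BL/6 background, about 20 weeks old and labelled as female. No wild-type library was analysed here, so the Roquin mutation is shared by both groups. CD11b+Gr-1lo cells were sorted by FACS, and the labels call them M-MDSC, monocytic myeloid-derived suppressor cells. The other 4 libraries, SP Gr-1hi (5 and 6) and BM Gr-1hi (9 and 10), came from the granulocytic fraction of the same kind of mice and are used here for the estimate of the spread and as a reference level. No label links a library to a mouse or says whether mice were pooled, so p-values measure the spread between libraries.

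Roquin is an RNA-binding protein that represses mRNAs of inflammatory and T cell costimulatory genes, and the sanroque allele leads to a lupus-like disease with spontaneous germinal centers. Monocytes arise in the BM from dividing progenitors that pass through a stage with primary granule proteins, leave as classical Ly6C-high cells, and can become non-classical Ly6C-low cells that patrol vessels. The spleen holds a reservoir of monocytes within the red pulp, next to B cells, T cells, plasma cells, red cells and resident macrophages. A sorted myeloid fraction from the spleen can therefore carry transcripts of its neighbors, and in bulk samples fewer cells of a type and less RNA per cell cannot be told apart.

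The 4 Gr-1lo libraries had 36809570 to 68316154 counts on genes, and a count of 0 in a library allows up to 3 counts, or 0.0348 to 0.0633 CPM, for counting error only. Counting noise did not account for the differences within either pair of replicates, since chi-square over its degrees of freedom was 21.0 for libraries 7 and 8 and 18.9 for libraries 11 and 12. Library 7 stood apart in its sex-linked genes. Xist, the transcript of the inactive X chromosome, had 9898 counts in library 7 and 5, 5 and 1 in libraries 8, 11 and 12. The Y-linked gene Ddx3y had 1595 counts in library 7 and 2779 to 4902 in the other 3, although every mouse is labelled female. Library 7 thus held transcripts of both sexes. The gate was reflected in the counts. Itgam, which encodes CD11b, had 983 and 952 CPM in SP and 877 and 734 CPM in BM. Ly6g, the target of the Gr-1 antibody on neutrophils, had 3.07 to 8.23 CPM in the 4 Gr-1lo libraries and 330.0 to 801 CPM in the Gr-1hi libraries.

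The monocyte markers were at high levels in every Gr-1lo library, and none of the 3 markers fixed for these cells was called. Csf1r, the receptor for M-CSF, had 663 and 754 CPM in SP and 471 and 436 CPM in BM (log2 FC 0.64, SE 0.18, adjusted p = 0.0957). Ly6c2, which encodes the Ly6C antigen of classical monocytes, had 1196 and 1440 CPM in SP and 1645 and 2193 CPM in BM (log2 FC -0.54, SE 0.22, adjusted p = 0.221). Lyz2, the lysozyme of phagocytes, had 8056 and 8950 CPM in SP and 8653 and 8209 CPM in BM, and its groups overlapped. Ccr2, the receptor that monocytes use to leave the BM, had 1451 to 1826 CPM in the 4 libraries and 6.73 to 38.6 CPM in the Gr-1hi libraries. In the Gr-1hi libraries Csf1r had 133 to 375 CPM, below every Gr-1lo library. Ly6c2 had 585 and 830 CPM in SP Gr-1hi and 1133 and 1516 CPM in BM Gr-1hi, lower than in Gr-1lo of the same tissue only. Lyz2 had 4489 to 11470 CPM in Gr-1hi libraries and did not separate the fractions. By Csf1r and Ccr2 the Gr-1lo fraction was monocytic in both tissues.

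A gene was called where edgeR's quasi-likelihood test gave a Benjamini-Hochberg adjusted p no higher than 0.05 and the fold change (FC) reached 2, with n = 2 libraries in each group. Between SP and BM this held for 716 of 17650 genes tested (4.06%), 678 of them higher (3.84%) and 38 lower (0.215%) in SP. At any FC 984 genes (5.58%) passed the adjusted p, and 3545 (20.1%) had an unadjusted p up to 0.05. With limma-voom, 467 genes were higher and 95 lower. Without library 7, 563 genes were called, and without library 8, 11 or 12 the number was 389, 433 or 396. Most calls were of weakly expressed genes. In the set of 8789 genes that had 10 CPM or more in both libraries of the higher group, 133 (1.51%) were called, 127 (1.44%) higher and 6 (0.0683%) lower in SP. Without library 7, 139 genes were higher and 9 lower at that level, and 108 of the 133 were called again. Without library 8 it was 95 higher and 2 lower, and without library 12 it was 93 and 2. The difference between tissues itself differed between Gr-1lo and Gr-1hi for 1719 genes (9.74%).

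The 127 increases at this level were sorted by gene list. Genes of lymphoid cells made up 35, of which 33 were immunoglobulin genes and the others Cd22 and Jchain. The 4 globin genes made up the erythroid group, and Ltf, Ngp, Lcn2 and Itgb2l that of neutrophil granules. C1qb, Axl and Maf belonged to the list of splenic macrophages. The other 81 genes were in no list of another cell type. Of the 40 genes that were at 10 CPM or more in both BM libraries as well, 31 were among these 81 and 4 were lymphoid. Below 10 CPM, 206 of the 551 genes called higher were lymphoid. The plot of mean levels shows these groups.

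**Figure D1:**
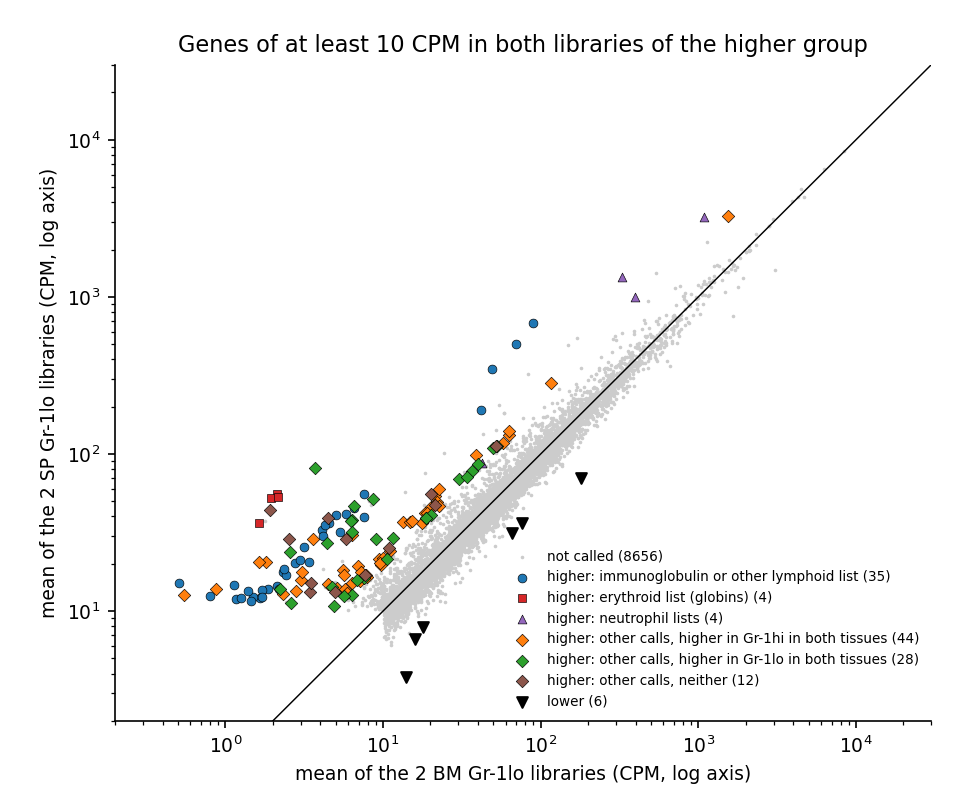
Mean CPM of the 2 BM Gr-1lo libraries (x, log axis) against that of the 2 SP Gr-1lo libraries (y, log axis) for the 8789 genes of at least 10 CPM in both libraries of the higher group, with 1 point per gene and equality as a line. The 127 genes called higher lie above the line in color by group, the lymphoid genes and globins mostly at few CPM in BM, and the 6 called lower are black triangles below it.

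Immunoglobulin transcripts were the largest lymphoid trace. Together the 432 genes annotated as immunoglobulin genes, tested or not, took 3004 and 4085 CPM in the SP libraries and 558 and 786 CPM in the BM libraries. They took 5122 and 4343 CPM in SP Gr-1hi libraries, so the trace was in both SP fractions. Igkc, the kappa light chain constant gene, had 558 and 811 CPM in SP and 73.8 and 105 CPM in BM, a log2 FC of 2.94 (SE 0.23, adjusted p = 0.000445). Ighg2c rose to 386 and 617 CPM in SP from 52.2 and 87.3 CPM in BM, and Ighg1 to 391 and 305 CPM from 47.1 and 51.2 CPM. Both encode constant regions of class-switched IgG. Ighm, the heavy chain of IgM, was not called, with 307 and 524 CPM in SP and 213 and 269 CPM in BM (log2 FC 0.79, adjusted p = 0.239). Of 11 constant region genes, 8 were called higher, 7 without library 7. The sequences of some of them, such as the IgG genes, are alike, so it is uncertain which of those a read came from. Jchain, which joins IgM and IgA in plasma cells, had 29.1 and 41.0 CPM in SP and 2.95 and 5.65 CPM in BM (log2 FC 3.02, SE 0.43, adjusted p = 0.0104), and was not called without library 8 (adjusted p = 0.0662) or 11 (0.0521).

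Genes of B and T cells were at far lower levels than the immunoglobulins. The 20 B cell genes summed to 106 and 135 CPM in SP and 24.2 and 28.9 CPM in BM, and 17 of them were called higher, 17 also without library 7. Ms4a1, which encodes CD20, had 7.01 and 9.75 CPM in SP and 0.0819 and 0.246 CPM in BM, with log2 FC 5.63 (SE 0.43, adjusted p = 0.000445). All 23 T cell genes were called higher, 22 without library 7, and none reached 10 CPM in both SP libraries. Their sum was 60.1 and 87.6 CPM in SP against 6.52 and 6.69 CPM in BM. Gr-1hi libraries held more of both lists in each tissue. The T cell genes summed to 288 and 181 CPM in SP Gr-1hi and 32.6 and 30.4 CPM in BM Gr-1hi. The B cell genes summed to 772 and 524 CPM and to 45.1 and 41.8 CPM. Cd3e, a chain of the T cell receptor complex, had 2.30 and 3.27 CPM in SP and 0.123 and 0.132 CPM in BM. Of 13 NK cell genes, 6 were called higher, among them the cytotoxic granule genes Gzma and Prf1. The count was 6 without library 7 and 4 without library 8. The list sums were close, 58.7 and 77.2 CPM in SP and 50.25 and 69.4 CPM in BM. The defining NK receptor gene Ncr1 was near 0, with 0.317 and 0.162 CPM in SP.

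Erythroid genes were called through the globins and 3 genes at lower levels. The globins Hba-a1, Hba-a2, Hbb-bs and Hbb-bt summed to 165 and 230 CPM in SP and 7.58 and 8.18 CPM in BM. Hba-a1 had 45.8 and 65.4 CPM in SP and 1.91 and 2.34 CPM in BM, a log2 FC of 4.71 (SE 0.61, adjusted p = 0.00892). Alas2, the heme synthesis enzyme of erythroid cells, was called at 1.01 and 1.70 CPM in SP against 0.0615 and 0.0567 CPM in BM. No gene of the erythroid list was called without library 8, 11 or 12, and 3 were called without library 7, compared with 7 of 14 in all libraries. With limma-voom none was called. The 2 alpha globin genes, like the 2 beta globin genes, are near copies, and their reads cannot be assigned with certainty.

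Of 19 genes of splenic macrophages, 9 were called higher, 9 also without library 7 and 6 without library 8, and the list summed to 411 and 459 CPM in SP and 339 and 289 CPM in BM. Spic, the transcription factor of red pulp macrophages, had 3.21 and 7.67 CPM in SP and 0.205 and 0.132 CPM in BM. The complement subunit genes C1qa, C1qb and C1qc were called together, and C1qb had 12.6 and 19.1 CPM in SP and 2.73 and 3.31 CPM in BM. Vcam1, which red pulp macrophages also use, was not called, with 38.1 and 25.9 CPM in SP and 50.3 and 39.4 CPM in BM. Of 14 conventional dendritic cell genes 6 were called, none at 10 CPM, 7 without library 7 and 4 without library 8 or 12. The sums of the whole list were close, 227 and 244 CPM in SP and 197 and 208 CPM in BM. Xcr1, the chemokine receptor of cross-presenting dendritic cells, had 0.485 and 0.753 CPM in SP. Siglech, which marks plasmacytoid dendritic cells, had 0.232 to 0.642 CPM in all 4 libraries. Of 7 plasmacytoid dendritic cell genes, Spib, Ly6d and Pacsin1 were called, 2 without library 7 or 12, 1 without library 8 or 11, and none with limma-voom. Of 9 plasma cell genes, Jchain alone was called at 10 CPM or more in both SP libraries, so the called genes were a small part of the list sums. At any level 5 were called, Jchain, Mzb1, Sdc1, Prdm1 and Derl3. Without library 7, 8, 11 or 12 that count was 4, 1, 2 or 3, and the list sums were close, 474 and 493 CPM in SP and 442 and 452 CPM in BM. Of 12 genes of eosinophils, basophils and mast cells, the basophil protease gene Mcpt8 was called lower (1.71 and 1.11 CPM in SP, 3.07 and 3.34 CPM in BM), though not when library 7, 8, 11 or 12 was left out. Stroma and platelet genes were rare, with summed levels of 1.06 to 2.56 CPM and 16.4 to 21.5 CPM. Stab2 and Gp6 were called higher and Cxcl12 lower, and without library 8 none of them was called.

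Of 14 genes of neutrophil secondary granules, made by myelocytes, 4 were called higher in SP (28.6%, where 3.84% of all genes were). Ltf, which encodes lactoferrin, had 1314 and 1372 CPM in SP and 295 and 365 CPM in BM, a log2 FC of 2.02 (SE 0.25, adjusted p = 0.00270). Ngp rose to 3229 and 3178 CPM from 1130 and 1052 CPM, and Lcn2, the siderophore-binding lipocalin, to 1062 and 935 CPM from 429 and 361 CPM. Without library 7, 8, 11 or 12 the count was 3, 2, 2 or 1, and it was 6 with limma-voom. Both SP libraries were above both BM libraries for 11 of the 14, compared with 27.1% of all genes. Mmp8, a collagenase of the same list, had 308 and 237 CPM in SP and 358 and 289 CPM in BM. Of 6 primary granule genes, made by promyelocytes and shared with monocyte progenitors, 1 was called, lower in SP. Ctsg, the serine protease cathepsin G, fell to 87.8 and 52.7 CPM from 170 and 192 CPM (log2 FC -1.36, SE 0.27, adjusted p = 0.0259). Mpo, myeloperoxidase, had 1012 and 509 CPM in SP and 1714 and 1624 CPM in BM and was not called (log2 FC -1.13, adjusted p = 0.219). Both SP libraries were below both BM libraries for all 6 primary granule genes, where 32.5% of all genes tested showed such an order. Without library 8, Ctsg was not called (adjusted p = 0.120), nor without library 11 (0.0993) or 12 (0.169), nor in the fit of the 4 Gr-1lo libraries. Without library 7, 3 of the 6 were called lower.

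Of 12 mature neutrophil genes none was called by edgeR, 6 had an unadjusted p up to 0.05, and 1 was called with DESeq2 and 1 with limma-voom. Of their log2 FCs 9 were above 0, with a median of 0.25. Their sum was 634 and 617 CPM in SP and 475 and 499 CPM in BM, against 24810 to 34780 CPM in Gr-1hi libraries. Cxcr2, the receptor that draws mature neutrophils, had a mean in SP Gr-1lo of 1.0% of that in SP Gr-1hi, and 0.576% in BM. Ltf had 10.1% in SP and 1.55% in BM on that scale. S100a9, an alarmin of neutrophils and monocytes, rose to 3615 and 2912 CPM from 1492 and 1579 CPM (log2 FC 1.09, SE 0.15, adjusted p = 0.00439). It stood at 10.9% of the Gr-1hi level in SP and 3.22% in BM, and without library 7 its log2 FC was 0.93, an FC below 2. The plot of summed lists sets these levels side by side.

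**Figure D2:**
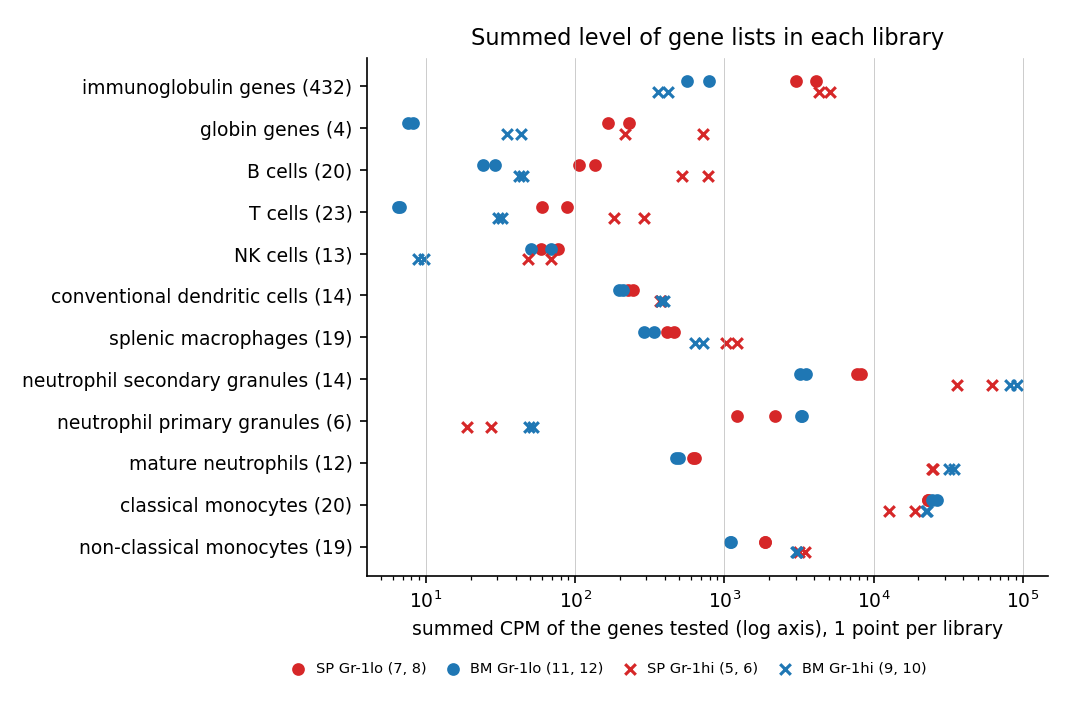
Summed CPM (x, log axis) of the genes of 12 lists or gene sets, with 1 point per library: circles for Gr-1lo, crosses for Gr-1hi, red for SP, blue for BM. Brackets give the number of genes summed for immunoglobulins and globins and the number tested for the other lists. The sums also hold list genes that were not tested, although the axis names genes tested. The SP Gr-1lo libraries lie above the BM Gr-1lo libraries for immunoglobulins (3004 and 4085 against 558 and 786 CPM), globins, B cells and T cells, below them for primary granules, and close to them for classical monocytes.

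Once the genes of these lists were set apart, the increases of highest FC at 10 CPM or more included genes of non-classical monocytes, chemokines, and cell surface or matrix enzymes. Ace, the angiotensin-converting enzyme, had 48.4 and 40.0 CPM in SP and 2.73 and 1.13 CPM in BM, a log2 FC of 4.52 (SE 0.48, adjusted p = 0.00306). Itgax, the integrin CD11c, rose to 11.1 and 16.4 CPM from 1.13 and 0.605 CPM (log2 FC 4.0, SE 0.36). Treml4, a receptor of non-classical monocytes and splenic macrophages, rose to 27.7 and 29.6 CPM from 4.24 and 2.91 CPM (log2 FC 3.0, SE 0.18). Adgre4, an adhesion G protein-coupled receptor of the same cells, rose to 43.1 and 49.9 CPM from 7.95 and 5.04 CPM (log2 FC 2.84, SE 0.28). For each of these genes the groups were far apart. Itgax and Treml4 were higher in Gr-1hi than in Gr-1lo libraries in both tissues. In SP Gr-1hi they had 81.9 and 83.8 CPM and 70.5 and 65.8 CPM. Ace had 49.3 and 35.8 CPM there, and Adgre4 was higher in Gr-1lo in both tissues. The part of Gr-1hi cells in these increases was not tested.

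Of the 19 genes of non-classical monocytes, 8 were called higher, 8 also without library 7, and the median log2 FC was 1.19, where that of all genes was -0.01. Both SP libraries were above both BM libraries for 18 of the 19, where 27.1% of all genes tested showed such an order. Fcgr4, the activating Fc receptor of these monocytes, had 88.7 and 108 CPM in SP and 37.6 and 40.5 CPM in BM (log2 FC 1.34, SE 0.14, adjusted p = 0.00119). Nr4a1, the nuclear receptor that non-classical monocytes need, had 205 and 206 CPM in SP and 62.2 and 46.3 CPM in BM. Its log2 FC of 1.92 was not called (SE 0.53, adjusted p = 0.121). The SP Gr-1hi libraries, which enter the fit, had 102 and 334 CPM, and the gene was called in a fit of the 4 Gr-1lo libraries alone, without library 5 or 6, and with DESeq2. Cx3cr1, the fractalkine receptor, had 46.9 and 40.2 CPM in SP and 39.9 and 17.2 CPM in BM and was not called. The 1 member that was lower was Spn, with 182 and 165 CPM in SP and 208 and 275 CPM in BM. Ace, Itgax, Treml4 and Fcgr4 were at 35.8 to 408 CPM in the SP Gr-1hi libraries. Of the 19 genes, 9 were higher in Gr-1hi than in Gr-1lo libraries in both tissues, and 6 were higher in Gr-1lo. Over all 17650 genes tested, 6100 and 7316 showed these orders. The list summed to 1886 and 1875 CPM in SP Gr-1lo, 1101 and 1088 CPM in BM Gr-1lo, and 3030 to 3469 CPM in Gr-1hi libraries. The part of Gr-1hi cells in the increases of this list was not tested. Of 20 genes of classical monocytes none was called by edgeR, DESeq2 or limma-voom, 3 had an unadjusted p up to 0.05, and the median log2 FC was -0.01. Fn1, which encodes fibronectin, had 1753 and 1220 CPM in SP and 3656 and 2474 CPM in BM (log2 FC -1.04, SE 1.11), and was not called.

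The remaining leading increases had varied roles. Gimap3, a GTPase of lymphocyte survival, rose to 10.7 and 14.7 CPM from 0.594 and 0.491 CPM. Rasgrp1, which activates Ras in lymphocytes, rose to 21.1 and 36.3 CPM from 2.36 and 2.72 CPM. Both were also at 13.8 to 59.8 CPM in the SP Gr-1hi libraries, and the part of lymphoid cells in them was not tested. Tgm2, a transglutaminase, rose to 16.4 and 25.0 CPM from 1.37 and 1.91 CPM, and Acod1, which makes itaconate in activated macrophages, to 13.2 and 28.1 CPM from 1.5 and 2.14 CPM. Gr-1hi libraries had more of both in each tissue, with 43.7 to 168 CPM of Tgm2 and 94.2 to 359 CPM of Acod1. The part of Gr-1hi cells in these 2 increases was not tested. Mmp14, a membrane-bound matrix metalloproteinase, rose to 16.4 and 31.4 CPM from 2.13 and 3.04 CPM. Cmklr1, the chemerin receptor, rose to 23.5 and 30.8 CPM from 5.37 and 3.51 CPM. Tppp3, a tubulin-binding protein gene, rose to 58.9 and 44.6 CPM from 8.13 and 9.03 CPM, and Spon1, an extracellular matrix protein gene, to 12.4 and 15.4 CPM from 2.23 and 2.21 CPM. Of the 15 leading increases, 11 were called in each of the 14 alternative fits. Acod1, Mmp14 and Cxcl10 were not called without library 11 (adjusted p = 0.0573 to 0.0811) or 12 (0.0570 to 0.0641), and Cxcl9 was not called in the fit of the 4 Gr-1lo libraries (0.0540).

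**Figure D3:**
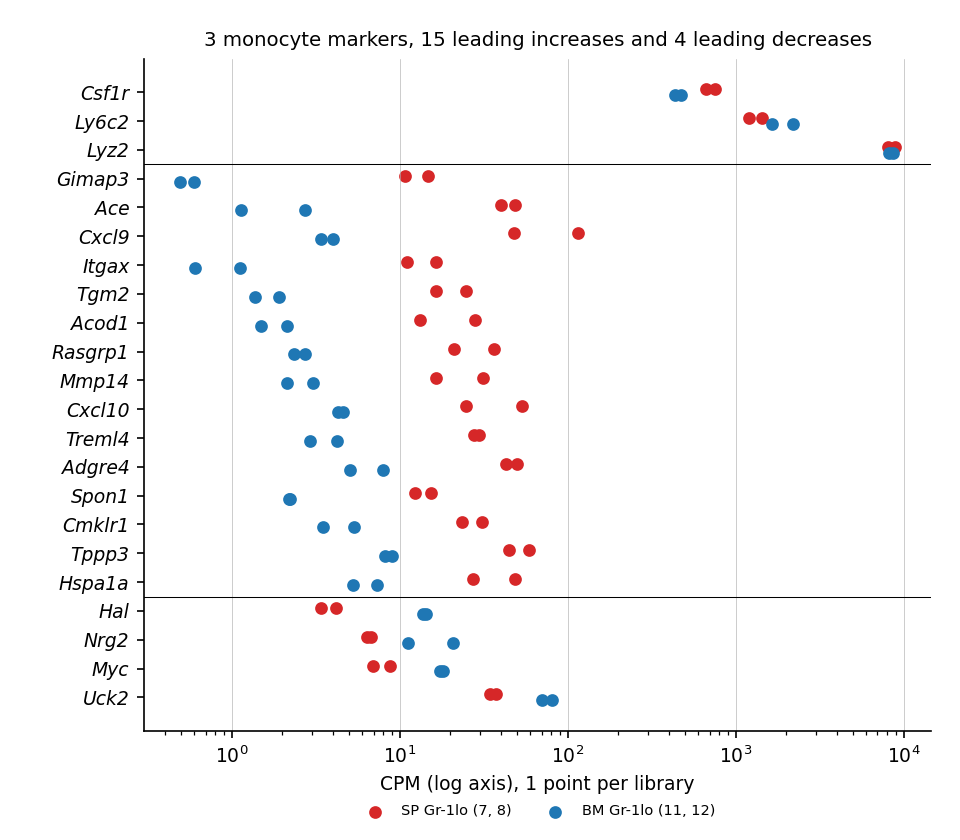
CPM (x, log axis) in each Gr-1lo library, with 1 point per library, red for SP and blue for BM, of 3 monocyte markers, the 15 leading increases and the 4 leading decreases. The groups overlap or lie close for Csf1r, Ly6c2 and Lyz2 and are apart for each gene below, from Gimap3 (10.7 and 14.7 against 0.594 and 0.491 CPM) to Uck2 (37.7 and 34.6 against 70.5 and 80.9 CPM).

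Among the 81 genes outside the lists of other cell types, 27 were higher in Gr-1lo than in Gr-1hi libraries in both tissues without overlap, and so were at their highest in SP Gr-1lo. Together with Maf this made 28 of the 127, or 22.0%, where 47.8% of the 8789 genes showed that order. The split was chosen after the values were seen and uses the same libraries, so it is a description. Cxcl9, Mmp14, Adgre4, Spon1, Cmklr1, Tppp3 and Hspa1a of the leading genes belonged here. Havcr2, the inhibitory receptor TIM-3, had 11.7 and 10.7 CPM in SP Gr-1lo and 3.11 and 2.12 CPM in BM Gr-1lo. Pltp, a phospholipid transfer protein gene, had 13.2 and 15.3 CPM against 5.41 and 4.10 CPM, and Il18, an inflammasome cytokine, 11.6 and 13.9 CPM against 6.64 and 6.01 CPM. Il18 was not called with DESeq2 or RLE scaling, and its log2 FC was 0.87 to 1.14 with 1 library left out. Il21r, the receptor of a cytokine of follicular helper T cells, rose to 28.0 and 30.1 CPM from 10.6 and 12.5 CPM, and its partner chain Il2rg to 95.9 and 129 CPM from 49.0 and 57.4 CPM. Maf, a transcription factor of macrophages, rose to 36.8 and 45.5 CPM from 20.3 and 20.2 CPM. Without library 7, 29 genes of this order were called, and without library 8 it was 15.

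A second set of 42 of the 81 genes was higher in Gr-1hi than in Gr-1lo libraries in both tissues. Of all 127 increases 52 were of this order (40.9%), near the 36.8% of the 8789 genes that showed it. Dusp6, a phosphatase that limits ERK signaling, had 52.7 and 55.3 CPM in SP Gr-1lo and 23.1 and 19.8 CPM in BM Gr-1lo, against 162 to 256 CPM in Gr-1hi libraries. Ets2 and Inhba, the subunit of activin A, rose likewise, to 13.3 and 17.0 CPM from 7.52 and 5.23 CPM and to 17.6 and 16.2 CPM from 6.39 and 4.95 CPM. Marcks, an actin-binding kinase substrate, rose to 116 and 119 CPM from 61.2 and 53.3 CPM. The mean in Gr-1lo as a percentage of that in Gr-1hi of the same tissue had a median of 18.7% over these 42 genes in SP, with a range of 3.60% to 79.7%, and of 8.91% in BM. For the 12 mature neutrophil genes the medians were 1.66% in SP and 1.07% in BM, and for the 14 secondary granule genes 16.3% and 4.38%. The part of Gr-1hi cells in these increases was not tested.

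Genes of the TNF and NF-kB response were the process list with the most calls. NF-kB dimers are released from inhibitors when cells sense TNF or microbial products, and they induce chemokines, adhesion molecules and their own inhibitors. Of 32 genes, 12 were called higher (37.5%, where 3.84% of all genes were) and none lower. All 32 log2 FCs were above 0, with a median of 1.12. Both SP libraries were above both BM libraries for 30 of them, compared with 27.1% of all genes. Without library 7 the count was 14, and without library 8 or 12 it was 8. The effector Icam1, an adhesion ligand, had 76.1 and 96.0 CPM in SP and 35.2 and 44.6 CPM in BM (log2 FC 1.11, SE 0.19, adjusted p = 0.0134). Cd40, the costimulatory receptor, had 17.8 and 25.2 CPM in SP and 9.40 and 11.7 CPM in BM. Its log2 FC of 1.03 was not called with DESeq2 or RLE scaling, and was 0.76 to 1.26 with 1 library left out. The inhibitors Tnfaip3, or A20, and Nfkbie rose to 36.4 and 57.7 CPM from 19.3 and 23.5 CPM and to 18.7 and 24.3 CPM from 9.92 and 8.80 CPM. Relb, a subunit of the non-canonical pathway, rose to 17.9 and 20.6 CPM from 7.60 and 6.37 CPM. Il1rn, the antagonist of the IL-1 receptor, rose to 13.2 and 23.4 CPM from 6.70 and 4.42 CPM, against 214.5 to 284.5 CPM in Gr-1hi libraries. Tnfaip3 and Il1rn were not called in the fit of the 4 Gr-1lo libraries. With 1 library left out their log2 FCs were 0.77 to 1.43 and 1.26 to 2.08. Of the 32 genes, 22 were higher in Gr-1hi than in Gr-1lo libraries in both tissues, and 3 were higher in Gr-1lo. Over all 17650 genes tested, 6100 and 7316 showed these orders. The part of Gr-1hi cells in the increases of this list was not tested. Traf1 and Cd83 were called below 10 CPM. The canonical subunits Nfkb1, with 197 and 206 CPM in SP and 178 and 196 CPM in BM, and Rel were not called. Tnf itself was not called, with 20.7 and 25.9 CPM in SP and 14.5 and 13.2 CPM in BM. Il1b had 26.4 and 67.9 CPM in SP and 5.45 and 11.4 CPM in BM, a log2 FC of 2.48 that was not called (SE 0.54, adjusted p = 0.0580).

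The chemokines Cxcl9 and Cxcl10, ligands of CXCR3 on activated T cells, were the members of the interferon lists that were called. Cxcl9 had 47.7 and 116 CPM in SP and 4.02 and 3.40 CPM in BM, a log2 FC of 4.46 (SE 0.47, adjusted p = 0.00298). Cxcl10 had 24.8 and 53.5 CPM in SP and 4.30 and 4.63 CPM in BM, a log2 FC of 3.14 (SE 0.38, adjusted p = 0.00359). Library 8 was the higher SP library for both. Cxcl9 lies at chr5:92321347-92328079 and Cxcl10 at chr5:92346638-92348889 of GRCm38. Since Cxcl9, Cxcl10 and 7 genes of the NF-kB list rose together at 10 CPM or more, the 250 bases before their RefSeq starts were searched on both strands for 2 NF-kB motifs, GGG and TTCC with 2 or 3 bases of any kind between them, which can overlap. The interferon-stimulated response element, GAAA and GAAA with 2 bases of any kind between them, was searched likewise. Of the 9 genes, 7 had a promoter in the RefSeq table of GRCm38.p6, and 5 of these, Cxcl9, Cxcl10, Il1rn, Nfkbie and Tnfaip3, held an NF-kB motif. These 7 genes had 10 promoters, of which 6 held one (60%), compared with 8.26% of all 32851 promoters of that length and 10.1% of the promoters of genes at 10 CPM or more. These genes were picked as members of NF-kB and chemokine lists, so that share is no evidence of its own. Over all genes called higher at 10 CPM or more that were in no list of another cell type, 12 of 82 promoters (14.6%) held one. These 82 include the 10 picked promoters, which supply 6 of the 12, so that share is not independent of the pick. The response element was found in Cxcl10, compared with 2.98% of all promoters. These are matches of letters, and nothing was measured at them. The windows of the 2 chemokine genes and of Nfkbie are shown 5′ to 3′ on the strand of the gene with the matches in capitals, to place them before the start. They lie at chr5:92328080-92328329 (minus strand), chr5:92348890-92349139 (minus strand) and chr17:45555450-45555699 (plus strand).
Cxcl9: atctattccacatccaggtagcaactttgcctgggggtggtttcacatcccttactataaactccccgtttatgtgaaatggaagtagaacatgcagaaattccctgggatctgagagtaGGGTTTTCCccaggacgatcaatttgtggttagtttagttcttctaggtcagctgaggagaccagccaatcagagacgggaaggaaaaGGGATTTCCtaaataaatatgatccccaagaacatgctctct
Cxcl10: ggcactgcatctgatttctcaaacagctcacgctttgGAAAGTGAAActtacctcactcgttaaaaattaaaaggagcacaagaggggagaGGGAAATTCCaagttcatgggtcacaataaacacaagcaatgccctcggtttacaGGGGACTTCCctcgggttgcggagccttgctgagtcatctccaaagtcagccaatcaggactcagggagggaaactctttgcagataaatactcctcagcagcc
Nfkbie: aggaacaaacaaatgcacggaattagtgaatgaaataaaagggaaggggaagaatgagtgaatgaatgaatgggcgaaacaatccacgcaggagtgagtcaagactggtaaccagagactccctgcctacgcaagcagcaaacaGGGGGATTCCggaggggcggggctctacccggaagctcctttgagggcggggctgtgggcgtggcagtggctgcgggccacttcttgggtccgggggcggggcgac
In Cxcl9 the pair of matches began 130 and 42 bases before the start. In Cxcl10 the response element began 213 bases before it, and the NF-kB motifs 159, 104 and 103 bases before it, the last pair in overlap.

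The interferon lists held 1 call each. Of 33 type I interferon-stimulated genes only Cxcl10 was called, 31 log2 FCs were above 0, and the median was 0.51. Both SP libraries were above both BM libraries for 24 of them, compared with 27.1% of all genes, and below them for 0. In both tissues 24 were higher in Gr-1hi than in Gr-1lo libraries and 4 were higher in Gr-1lo, compared with 6100 and 7316 of all 17650 genes. The part of Gr-1hi cells in this list was not tested. Without library 7, 3 were called, and without library 11 or 12 none was. Oas2, which senses double-stranded RNA, had 149 and 158 CPM in SP and 92.8 and 83.6 CPM in BM (log2 FC 0.80, SE 0.12, adjusted p = 0.00728), an FC below 2. Of 20 genes induced by interferon-gamma, Cxcl9 was called, though no gene was in the fit of the 4 Gr-1lo libraries. Both SP libraries were above both BM libraries for 5 and below them for 0, and groups overlapped for the rest. Over all genes tested 27.1% and 32.5% showed these orders. The guanylate-binding protein gene Gbp2 had 369 and 697 CPM in SP and 163 and 441 CPM in BM (log2 FC 0.82, SE 0.69). For this list library 8 was above 7 and library 12 above 11, with summed levels of 3959, 2325, 2856 and 1371 CPM. The median log2 FC of 0.46 ranged from -0.04 to 1.34 over the alternatives.

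MHC class II genes, which present antigen to CD4+ T cells, were at high levels in both tissues. H2-Aa had 400.2 and 699 CPM in SP and 107 and 236 CPM in BM, a log2 FC of 1.68 that was not called (SE 0.48, adjusted p = 0.124). Cd74, the invariant chain, had 1070 and 1768 CPM in SP and 345 and 731 CPM in BM (log2 FC 1.4, adjusted p = 0.150). Of 13 genes of the list, H2-Oa, H2-Ob and H2-Eb2 were called, and both SP libraries were above both BM libraries for 10. H2-Ob, a chain of the peptide-loading inhibitor of B cells, had 8.00 and 11.0 CPM in SP and 0.697 and 1.25 CPM in BM. The called members moved with the B cell list, whose sums are given above, and the part of B cells in them was not tested.

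The inducible heat shock genes Hspa1a and Hspa1b stood apart from their list. Hspa1a had 27.3 and 48.7 CPM in SP and 7.38 and 5.29 CPM in BM, a log2 FC of 2.59 (SE 0.29, adjusted p = 0.00176), and its near copy Hspa1b had 26.3 and 48.5 CPM against 7.40 and 5.20 CPM, and the split of reads between the 2 copies is uncertain. The other 8 genes of the list were not called. Hspa8, the constitutive form, had 1381 and 1517 CPM in SP and 1371 and 1599 CPM in BM. Immediate-early genes, which respond to handling as well as to signals, gave 1 call of 25 (4.0%, where 3.84% of all genes were called higher). This was Dusp2, with 13.4 and 13.1 CPM in SP and 3.95 and 2.93 CPM in BM. The count was 5 without library 5, without library 6 and in the fit of the 4 Gr-1lo libraries, 4 with DESeq2, and 2 with limma-voom or without library 12. Fos had 832 and 933 CPM in SP and 632 and 812 CPM in BM and was not called.

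Of 7 effector genes by which myeloid cells suppress T cells none was called by edgeR or limma-voom, 4 had an unadjusted p up to 0.05, and DESeq2 called 2. Nos2, the inducible nitric oxide synthase, had 3.15 and 2.76 CPM in SP and 0.471 and 0.0378 CPM in BM (log2 FC 3.56, SE 0.96, adjusted p = 0.103). Cd274, which encodes PD-L1, had 40.6 and 74.8 CPM in SP and 8.58 and 19.1 CPM in BM (log2 FC 2.06, SE 0.58, adjusted p = 0.128). All 7 genes tested had a log2 FC above 0, and groups were apart for 6. None of 21 lysosome genes or 14 toll-like receptor and adaptor genes was called by edgeR or DESeq2. An unadjusted p up to 0.05 was found for 1 and 2 of them, and limma-voom called 1 in each list.

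The other lists of receptors, ligands and regulators had 4 or fewer genes called higher each, and their shares are to be read beside the 3.84% of all genes. Of 13 chemokines 4 were called (30.8%), 5 without library 7 and 3 without library 11 or 12, and the pair that did not reach 10 CPM in both SP libraries was Ccl5, which draws T cells (5.47 and 11.4 CPM in SP, 0.471 and 0.378 CPM in BM), and Cxcl16, a membrane-bound ligand of CXCR6 (5.32 and 8.85 CPM in SP, 0.799 and 0.491 CPM in BM). Of 21 chemoattractant receptors, Ccr7, S1pr1 and Cxcr5 were called higher (14.3%), all below 10 CPM and all receptors that lymphocytes use to home or leave. S1pr3 was called lower (0.823 and 0.765 CPM in SP, 2.01 and 1.76 CPM in BM), though not without library 7, 8, 11 or 12. Of 16 cytokines, Il1rn, Il18 and Il1a were called (18.8%), 4 without library 7 and 1 without library 8, 11 or 12. Of 11 T cell costimulatory and inhibitory ligands, Cd40, Havcr2 and Pdcd1lg2 were called (27.3%), 2 without library 7 and 1 without library 8, 9, 10, 11 or 12. The 17 Fc and phagocytic receptors gave 3 calls (17.6%), 2 without library 7, 11 or 12 and 1 without library 8. They were Fcgr4 and the TAM receptor tyrosine kinases Axl (12.1 and 15.3 CPM in SP, 4.63 and 6.91 CPM in BM) and Mertk (2.58 and 2.33 CPM in SP, 0.758 and 0.265 CPM in BM), which bind dying cells. Of 15 genes of lipid handling, Nr1h3, which encodes the sterol-sensing receptor LXR-alpha, was called (4.83 and 4.65 CPM in SP, 0.574 and 0.189 CPM in BM). That list gave 4 calls with DESeq2 and 3 without library 11. Of 10 Notch pathway genes, Hes1, Dtx1 and Nrarp were called (30.0%), each below 10 CPM, with 2 calls without library 11 or 12. Dtx1 had 3.88 and 4.62 CPM in SP, 0.0205 and 0.0567 CPM in BM, and 26.1 and 17.5 CPM in SP Gr-1hi libraries. Hes1, Dtx1 and Nrarp were each higher in Gr-1hi than in Gr-1lo libraries in both tissues. The part of lymphoid or Gr-1hi cells in them was not tested. Of 22 myeloid transcription factors, Maf was called higher and Myb and Myc lower. Maf was not called without library 8, 11 or 12, and without library 5 or 6 there were 3 calls higher. Of 12 complement genes the C1q subunits alone were called (25.0%), and of 8 S100 genes S100a9, which was not called without library 7. Of 15 adhesion genes Itgax and Icam1 were called, 1 of 15 without library 8 or 11, and of 15 coagulation and matrix genes Mmp14. 

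Another 12 of the 81 genes followed neither order between subsets, as did 47 of the 127 increases (37%) and 15.4% of the 8789 genes. Ly6i, a Ly6 family gene whose reads paralogs may share, had 20.1 and 37.6 CPM in SP, 4.86 and 6.84 CPM in BM. Slamf7 and Cd244a, receptors of the SLAM family, had 10.4 and 19.6 CPM in SP, 3.17 and 3.85 CPM in BM and 117 and 108 CPM in SP, 60.4 and 44.5 CPM in BM. Acp5, the tartrate-resistant acid phosphatase of osteoclasts and macrophages, had 13.7 and 12.8 CPM in SP, 5.96 and 4.0 CPM in BM. All 4 were called, with log2 FCs of 2.31, 2.10, 1.11 and 1.41.

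The 6 decreases at 10 CPM or more were Myc, Uck2, Myb, Hal, Nrg2 and Ctsg. Myc, the transcription factor of growth and ribosome synthesis, fell to 8.80 and 6.98 CPM in SP from 17.5 and 18.1 CPM in BM (log2 FC -1.18, SE 0.16, adjusted p = 0.00404). Uck2, a uridine-cytidine kinase of nucleotide salvage, fell to 37.7 and 34.6 CPM from 70.5 and 80.9 CPM (log2 FC -1.07, SE 0.10, adjusted p = 0.000871). Myb, the transcription factor of hematopoietic progenitors, fell to 35.9 and 27.1 CPM from 66.6 and 65.5 CPM. Hal, histidine ammonia-lyase, fell to 4.20 and 3.38 CPM from 13.8 and 14.3 CPM, and Nrg2, a ligand of ErbB receptors, to 6.80 and 6.42 CPM from 11.3 and 20.7 CPM. Ctsg is described above. Below 10 CPM, the progenitor marker Cd34 fell to 0.865 and 0.487 CPM from 3.11 and 2.65 CPM, and Serpinf1 to 0.612 and 0.661 CPM from 4.81 and 5.37 CPM. Of the 4 leading decreases, Myc alone stayed called in all 14 alternative fits. Without library 12 the log2 FC of Uck2 was -0.96, an FC below 2. Hal was not called without library 7, 8, 11 or 12 (adjusted p = 0.0843 to 0.192), and neither was Myb (adjusted p = 0.0710 to 0.283). Nrg2 was called without library 11 (adjusted p = 0.0162) and not without 7, 8 or 12 (0.177 to 0.341).

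Of 9 progenitor genes, Cd34 and Myb were called lower, 1 without library 7 and none without library 8, 11 or 12. None of 20 DNA replication genes and none of 19 mitosis genes was called by edgeR, DESeq2 or limma-voom, and 11 and 2 of them had an unadjusted p up to 0.05. All of them were lower in both SP libraries than in both BM libraries, where 32.5% of all genes tested were, with median log2 FCs of -0.37 and -0.40. Over the alternatives those medians stayed between -0.47 and -0.26 and between -0.47 and -0.30. Mki67, a marker of proliferation, had 764 and 763 CPM in SP and 886 and 953 CPM in BM, against 152 to 260.2 CPM in Gr-1hi libraries. Mcm5, a helicase subunit, had 140.2 and 123 CPM in SP and 155 and 179 CPM in BM. The 23 genes of MYC and ribosome biogenesis had a median log2 FC of -0.45, and 20 were lower in both SP libraries. Ncl, nucleolin, had 208 and 209 CPM in SP and 268 and 315 CPM in BM (log2 FC -0.48, SE 0.10, adjusted p = 0.0240), an FC below 2. Sterol synthesis genes had a median of -0.42, with all 17 log2 FCs below 0 and none called by edgeR. An unadjusted p up to 0.05 was found for 7, and DESeq2 called 2 and limma-voom 1, all lower.

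**Figure D4:**
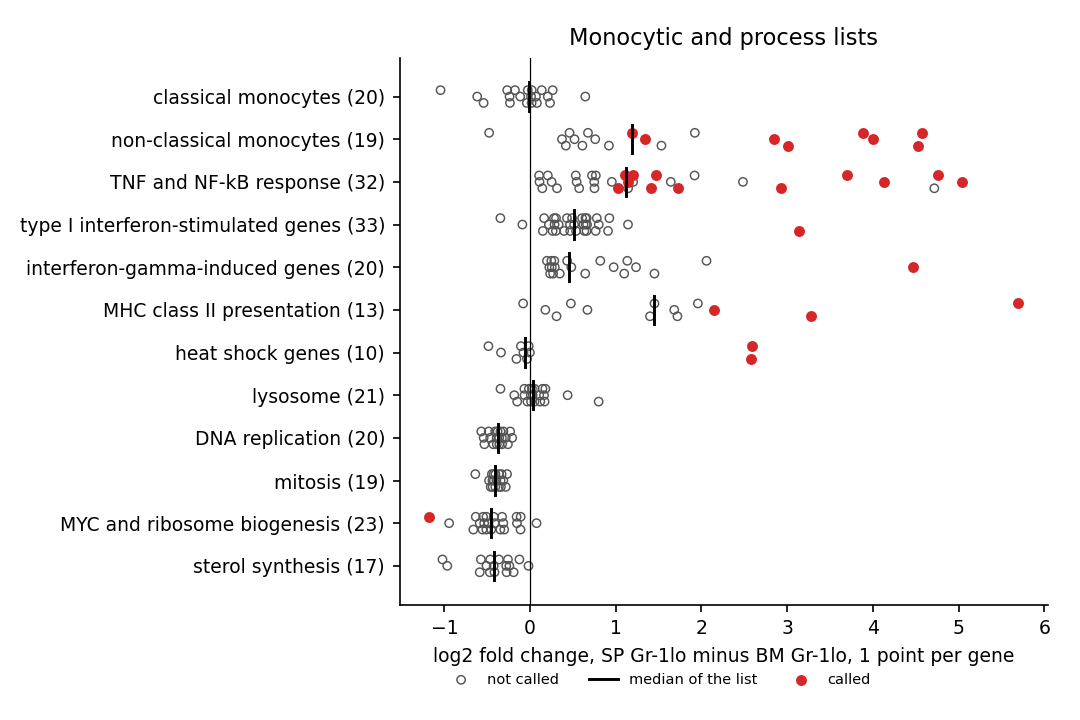
Log2 FC of SP Gr-1lo minus BM Gr-1lo (x) of each gene of 12 monocytic and process lists, with 1 point per gene, filled red where called, and the median as a bar. Classical monocyte genes center on 0 (median -0.01), non-classical monocyte and NF-kB genes lie to the right (medians 1.19 and 1.12), and replication, mitosis, ribosome biogenesis and sterol genes lie just to the left (medians -0.37 to -0.45).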

How the data were processed

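RNA of CD11b+Gr-1lo and CD11b+Gr-1hi cells was sequenced as stranded mRNA libraries, 2 per group. According to the study's methods, the authors checked reads with FastQC 0.11.8, trimmed them with Sickle 1.33, aligned them with STAR 2.5.3a to GRCm38.p6, and the authors deposited whole-number counts per gene from featureCounts of Subread 1.6.4 with GENCODE M24, without normalization. Strand settings of the counting were not given in the sources used here. The table holds 54188 genes, of which 34018 had a count.

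From these counts, genes passing filterByExpr of edgeR 4.0.16 (17650; R 4.3.3) were scaled by TMM, and CPM are TMM-normalized. A robust quasi-likelihood model of the 4 groups used all 8 libraries (4 residual degrees of freedom), and p-values were adjusted by Benjamini-Hochberg over all genes tested. A called gene had an adjusted p no higher than 0.05 and an FC of 2 or more. SE is the log2 FC divided by the square root of F. The procedure was tested on simulated data. The 43 lists (638 genes, 16 for other cell types) were written from general knowledge. Members and lists were chosen with earlier results of these data known. Lists are described by counts and medians.

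Genes were named by rule: the 15 largest increases and decreases called at 10 CPM or more without overlap that are in no list of another cell type (only 4 decreases qualified), up to 4 called members per list by mean CPM, and fixed markers. Maf, Havcr2, Pltp, Il18, Il21r, Il2rg, Dusp6, Ets2, Inhba, Marcks, Ighm, Alas2, Spic, Vcam1, Xcr1, Gzma, Prf1, Spn, Cd83, Rel, Tnf, Nfkb1, Il1b, Oas2, H2-Aa, Cd74, Fos, Nos2, Cd274, Serpinf1, Mcm5, Ncl and other genes outside that rule were chosen after their values were seen. Coordinates are of GENCODE M21 on GRCm38, an earlier release. Alternatives were RLE and upper-quartile scaling, no filter, other CPM floors, a fit of 4 libraries, limma 3.58.1 (voom, quantile normalization), DESeq2 1.42.0, and leaving out each library. Some items are not reported here.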

Additional observations from a re-analysis of the deposited data

Results flagged for a closer look

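The difference between SP and BM was itself compared between subsets as the log2 FC in Gr-1lo minus that in Gr-1hi, for the 3 markers and the leading genes (edgeR's quasi-likelihood test of the interaction, Benjamini-Hochberg adjustment over all genes, of which 9.74% were called). It differed for 5 genes. Treml4 differed by 2.64 (SE 0.24, adjusted p = 0.00162), with log2 FCs of 3.0 in Gr-1lo and 0.37 in Gr-1hi. Itgax differed by 2.41 (SE 0.46, adjusted p = 0.0148), with 4.0 and 1.59, and Tgm2 by 1.96 (SE 0.32, adjusted p = 0.00844), with 3.65 and 1.69. Myc differed by -3.55 (SE 0.26, adjusted p = 0.00153), since it fell in Gr-1lo (-1.18) and its log2 FC in Gr-1hi was 2.37. Uck2 differed by -2.64 (SE 0.18, adjusted p = 0.00153), with -1.07 and 1.57. Cxcl9 had nearly the same log2 FC in both subsets, 4.46 and 4.40 (interaction 0.06, SE 0.77, adjusted p = 0.971). The interactions of Csf1r (-0.41), Ly6c2 (0.36) and Lyz2 (0.79) were not called.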

How the results depend on the processing

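The number of genes called was 1077 without a filter on low counts and ranged from 389 to 785 with 1 library left out, the lowest without library 8 (389), 12 (396) and 11 (433). At 10 CPM or more it was 226 with a floor of 5 CPM, 72 with a floor of 20 CPM, and 95 to 148 with 1 library left out. The interaction count was 794 with limma-voom and 915 to 2488 with 1 library left out. With limma-voom or without the filter no globin was called at 10 CPM. These log2 FCs changed sign: Chil3 with voom (-0.23) and without library 12 (-0.07) or 7 (-0.16; -0.16 to 0.27 with 1 library left out), Ctsc with DESeq2 (-0.03), voom (-0.02), RLE (-0.03) and without 11 (-0.11) or 8 (-0.14; -0.14 to 0.19), Lyz2 with DESeq2 (-0.04), voom (0), RLE (-0.04) and without 12 (-0.02) or 8 (-0.06; -0.06 to 0.09), Psap with DESeq2 (-0.05), RLE (-0.05) and without 11 (-0.03) or 8 (-0.05; -0.05 to 0.08), Unc93b1 without 12 (0.05; -0.2 to 0.05), and, without 7, Ddx3y (0.06; -0.7 to 0.06) and Xist (-0.02; -0.02 to 12.22). The cause was not tested. The other 114 of the 121 named genes kept their direction in every alternative run. A fit of the 4 Gr-1lo libraries gives no interaction. No paired analysis was possible because the groups share no replicate number and no label links a library to a mouse. P-values rest on 2 libraries per group, and small changes of weakly expressed genes were not detectable at this depth.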
